A study of Mus musculus with 12 samples.

Results

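The comparison described is that of mouse macrophages exposed to monophosphoryl lipid A (MPLA) for 24 h with macrophages exposed for 4 h, gene by gene. A gene was a member when both the 4 h and the 24 h table gave it a finite unscaled log2 ratio to the untreated controls, which requires reads in the controls and in both MPLA groups. Of 24351 genes in the series, 21042 stood in both tables and 16451 were members, 13025 of them protein-coding. The value of a gene is its unscaled 24 h ratio over its unscaled 4 h ratio on the log2 scale, so that the shared controls cancel, centred on the median of all members. A positive value means a higher share of the library's RNA at 24 h than at 4 h, relative to the median gene. All cells were bone marrow-derived macrophages of C57BL/6 male mice aged 8 to 16 weeks, grown for 7 days with 10% serum and 10 ng/mL of macrophage colony stimulating factor (M-CSF), which stayed in the medium during exposure. The groups were untreated controls, 4 h of MPLA, 24 h of MPLA and cells taken 3 d after priming had ended, with 3 libraries each. The labels state neither the dose of MPLA nor whether replicate libraries are separate animals, so the deposited p-values may measure technical spread. The growth protocol also mentions MyD88-/- and TRIF-/- mice, but no library of the series is labelled with either genotype.

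MPLA is a detoxified lipid A that binds Toll-like receptor 4 (TLR4), the receptor for bacterial lipopolysaccharide. TLR4 signals through the adaptors MyD88 and TRIF, which activate NF-kappaB and interferon regulatory factors. The first transcripts are cytokines, chemokines and the inhibitors that shut the signal down, and many of them carry AU-rich elements that shorten the life of the mRNA. Interferon beta made in this first wave then acts back on the cells through its receptor, and proteins made early, such as C/EBP family members and I-kappaB-zeta, take part in a later wave of acute-phase and antimicrobial genes. The comparison of 24 h with 4 h asks which part of the response is early and which is late.

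No test of 24 h against 4 h exists in the authors' deposited tables and none could be made, because the tables hold no values per library. Every 24 h over 4 h value below is therefore a description. As a measure of size, each value carries a combined error, the root of the summed squares of the standard errors implied by the log2 fold changes and p-values of the 2 tables. Since the controls enter both tables, the combined error is an upper bound for the difference of the DESeq2 fold changes under the authors' DESeq2 model. The value itself comes from the unscaled ratios, so the bound need not hold for it. The median combined error was 0.19 over the 15513 members with an adjusted p in both tables and 1.94 over the other 938. Changes against control are called from the DESeq2 adjusted p under 0.05 in the authors' deposited tables, and "rose" and "fell" refer to those calls alone. By that call 33.2% of members with an adjusted p rose at 4 h and 32.8% fell. At 24 h 33.2% rose and 32.6% fell, so a call alone is common here. The authors' edgeR fold changes against control were mostly lower than their DESeq2 ones among the named genes. At 4 h Irf8 stood at 2.72 by DESeq2 and 1.78 by edgeR, and Rps18 at 0.15 and -0.78. At 24 h Irf8 stood at -0.91 and -1.32 by these tools, and Rps18 at -0.72 and -1.14. A rise under 2-fold by DESeq2 can therefore be a fall by edgeR. Calls, classes and levels against control depend on the tool, most at 4 h. The 4 h and 24 h columns share their controls and are set side by side without a test. In bulk RNA, fewer cells of a kind and less RNA per cell cannot be told apart.

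The unscaled ratio of 24 h to 4 h had a median of 0.58 over all members, a 1.5-fold shift that centring removed. Without centring the DESeq2 fold changes of the authors' deposited tables gave a median difference of -0.07 and their edgeR fold changes one of 0.45. After centring the quartiles were -0.73 and 0.68, and the range ran from -8.64 to 6.88. At least 2-fold higher at 24 h were 2932 members (17.8%), and at least 2-fold lower were 3259 (19.8%), together 37.6%. Of these, 2020 and 2137 lay at least 2 combined errors from 0. The lower side reached further: 477 members were at least 8-fold lower and 267 at least 8-fold higher, and 161 and 87 passed 16-fold. The 2-fold limits cut through a dense part of the distribution. Exactly at a limit lay 278 members, within 0.1 of one lay 1310, and the nearest members outside had values of 0.998 and -0.999.

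**Figure D1:**
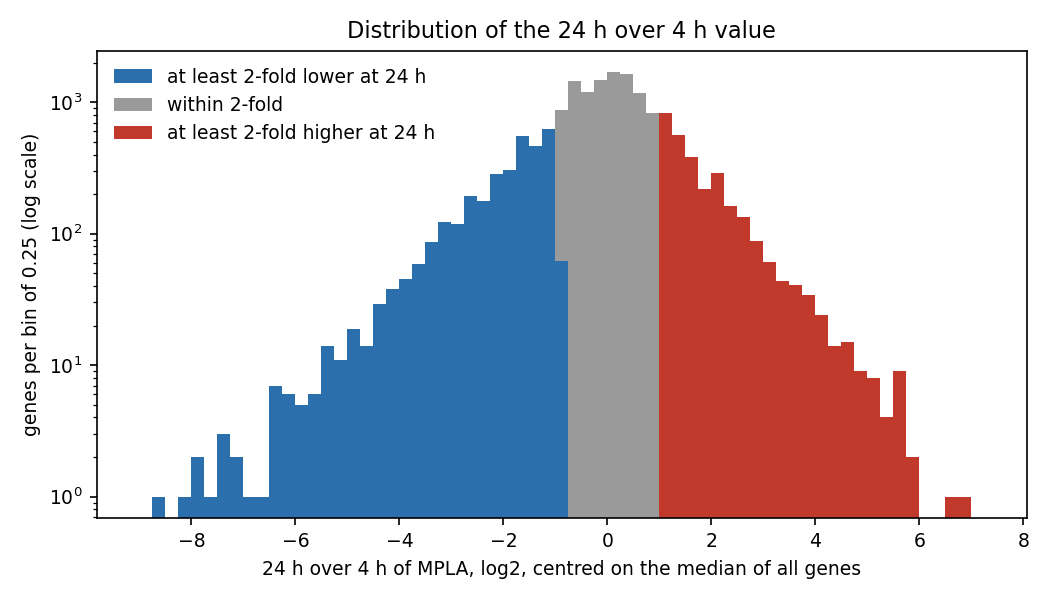
Number of genes, on a log axis, in bins of the 24 h over 4 h value (log2, centred) for the 16451 members. Blue marks the 3259 members at least 2-fold lower at 24 h, red the 2932 at least 2-fold higher and grey the rest, and the blue side extends further, to -8.64.

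The genes with the largest negative values included genes that rose at 4 h and were far lower at 24 h, and genes near or below control at 4 h that were almost gone at 24 h. Among the first, Sele, which encodes the leukocyte adhesion molecule E-selectin (chromosome 1, 164048234 to 164057677), was 262-fold lower at 24 h than at 4 h, with a value of -8.03 and a combined error of 1.45. In the authors' deposited tables Sele stood 9.91 over control at 4 h and 1.98 at 24 h, where its DESeq2 adjusted p was 0.128. Cnn3, the actin-binding calponin 3, had a value of -7.93 and went from 9.63 to 1.67 over control in the authors' deposited tables. Cav1, which encodes the membrane coat protein caveolin-1, had a value of -6.96 with a combined error of 0.40. It was 7.13 over control at 4 h and 0.13 at 24 h in the authors' deposited tables. Tmem200b, the apolipoprotein L gene Apol7c, the thrombin receptor gene F2r, the matrix protease gene Adamts4, Col27a1 and the receptor kinase gene Tyro3 also rose at 4 h, with values between -7.69 and -6.24. Adamts4 was still far over control at 24 h, at 4.88 in the authors' deposited table. Asap3, Il18rap, a chain of the interleukin 18 receptor, and Slc45a3 crossed the control level: in the authors' deposited tables they rose at 4 h, by 6.21, 3.45 and 2.01, and fell at 24 h, to -1.07, -3.31 and -3.32. For Apol7c, 25.6% of 50-base transcript windows recur in another gene, and its reads may be split.

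Among the genes that were almost gone at 24 h, Gprc5c, an orphan G protein-coupled receptor gene (chromosome 11, 114851152 to 114872617), had the lowest value of all members, -8.64 with a combined error of 0.61. It was at -0.66 against control at 4 h, -8.60 at 24 h and still -4.90 at 3 d in the authors' deposited tables. Ighm, the constant region of the immunoglobulin mu heavy chain, had a value of -7.94 and stood at -1.75 and -8.98 in the authors' deposited tables. Ccnb2, which encodes the mitotic cyclin B2, was 158-fold lower at 24 h than at 4 h. Hpgd, whose enzyme inactivates prostaglandins, was 88.5-fold lower. For Gprc5c, Ighm, Slc45a3 and Hpgd the DESeq2 columns gave smaller differences after centring, of -7.88, -7.16, -5.27 and -5.74.

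On the positive side most of the largest values belonged to genes that had been lost at 4 h. Lhfpl2 (chromosome 13, 94057796 to 94195409) was 50.9-fold higher at 24 h, with a value of 5.67 and a combined error of 0.17. It had been at -6.30 against control at 4 h and was at -0.70 at 24 h and 1.35 at 3 d in the authors' deposited tables. Plekhg3, Zfand4, Chd3os, Ccdc125, the glycosyltransferase gene B4galnt2 and Slc16a5, a monocarboxylate transporter family gene, had values between 5.41 and 5.74 and 4 h levels between -7.13 and -4.20 in the authors' deposited tables. Smad6, the inhibitory SMAD of bone morphogenetic protein signalling, crossed from below to above the controls. Its value was 5.54, and in the authors' deposited tables it fell to -3.94 at 4 h and rose to 1.40 at 24 h. Naip1, a sensor subunit of the NLRC4 inflammasome, made the same crossing with a value of 6.71, from -3.46 to 2.95 in the authors' deposited tables, but 31.5% of its windows occur in other transcripts. Slamf6, a homophilic receptor of the SLAM family, had a value of 5.98 and Ip6k3, an inositol hexakisphosphate kinase gene, one of 5.53. Both were uncalled at 4 h and rose at 24 h, to 4.98 and 5.46 in the authors' deposited tables. The antisense transcript RP23-341J13.4 had a value of 5.87, with a combined error of 1.65.

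Time courses were separated by the 24 h over 4 h value together with the calls against control. Early genes were at least 2-fold over control at 4 h and called, and at least 2-fold lower at 24 h. Of these 1447 genes, 918 were early-only, with a 24 h level under 2-fold over control, and 529 were still at least 2-fold over control. Late-rising genes, 459 in all, were called and at least 2-fold over control at 24 h and at least 2-fold higher than at 4 h: 303 were late-only and 156, the genes rising further, had already been at least 2-fold over control at 4 h. The level at the other time was judged by its fold alone, so a gene such as Sele counts as still raised without a call at 24 h. A group of 1572 recovering genes had fallen at least 2-fold at 4 h and was at least 2-fold higher at 24 h, and 931 late-falling genes were called at least 2-fold under control at 24 h and had been at least 2-fold higher at 4 h. The recovering genes outnumbered the late-rising ones, and 48 genes, among them Naip1, Smad6 and Trib3, were both recovering and late-only. Another 69, with Asap3 and Il18rap, were both early-only and late-falling. The counts rest on calls that were frequent in these tables: of members with an adjusted p, 18.2% rose and 19.2% fell at least 2-fold at 4 h, and 12.5% and 15.9% did so at 24 h. In no class were 949 of the higher and 950 of the lower members.

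Early-only genes had a median of 2.06 over control at 4 h and 0.18 at 24 h in the authors' deposited tables, and 831 of the 918 lay within 2-fold of control at 24 h. Early genes that were still raised began higher, with medians of 4.12 and 2.04 in the authors' deposited tables. Genes rising further went from a median of 2.22 to 4.03, and late-only genes from -0.11 to 1.63, in the same tables. Recovering genes went from -2.25 to -0.50: in 1049 the 24 h level was within 2-fold of control and in 475 it was still at least 2-fold lower. Of the late-falling genes, 535 had been within 2-fold of control at 4 h and 326 were already at least 2-fold lower. The classes use these values, so the medians are descriptions of the classes and no tests of them.

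**Figure D2:**
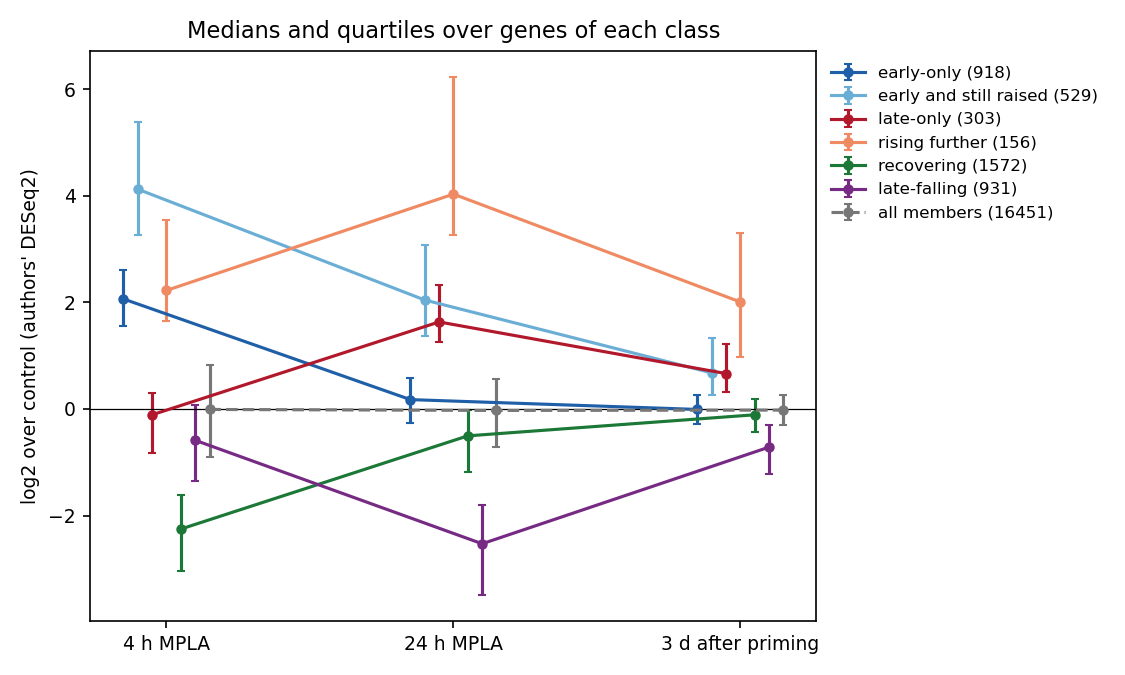
Log2 level over control at 4 h, 24 h and 3 d after priming for the 6 classes and for all members (authors' DESeq2 columns), with points for the median over genes, bars for the quartiles and the number of genes in brackets. Genes rising further stood at a median of 2.01 at 3 d and early-only genes at -0.01.

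The 3 d libraries took no part in the 24 h over 4 h value, although the classes were called against the same controls. Of members with an adjusted p at 3 d, 30% rose and 26% fell, and 6.22% and 4.86% did so by at least 2-fold. Of 257 tested members at least 8-fold higher at 24 h than at 4 h, 77 were called at least 2-fold higher than control at 3 d and 7.39% at least 2-fold lower. Of those at least 8-fold lower at 24 h, 7.71% were higher and 35.4% lower. Their medians over control at 3 d were 0.21 and -0.57 in the authors' deposited table. At the 2-fold limit the split was the same way round and smaller, with 10.8% higher and 3.76% lower against 8.18% higher and 13.8% lower. By class, the 3 d medians in the authors' deposited table were -0.01 for early-only, 0.68 for early and still raised, 0.66 for late-only, 2.01 for genes rising further, -0.11 for recovering and -0.72 for late-falling genes.

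For every list below, the shares over all members were 17.8% at least 2-fold higher and 19.8% at least 2-fold lower. Transcripts of the secreted proteins of the first wave were mostly lower at 24 h than at 4 h. Of 20 inflammatory cytokine and growth factor genes with a value, 13 were at least 2-fold lower at 24 h and 1 was at least 2-fold higher, with a median of -2.23. Il27, which encodes the p28 chain of interleukin 27 (chromosome 7, 126589010 to 126594941), was 29.2-fold lower at 24 h, and in the authors' deposited tables went from 10.39 over control at 4 h to 5.46 at 24 h. Il6, the gene of the fever- and acute-phase-inducing interleukin 6, was 11.4-fold lower, from 12.55 to 8.95 over control in the authors' deposited tables. Tnf, the tumour necrosis factor gene, was 6.77-fold lower, with a value of -2.76 and a combined error of 0.25. Csf1, the gene of M-CSF itself, had a value of -3.45, Il15 one of -3.09, Ifnb1 (interferon beta) one of -3.04 with a combined error of 1.23, and Il12b, a subunit of interleukins 12 and 23, one of -2.70. These genes were lower than at 4 h and yet far over control: 17 of the 20 rose at both times in the authors' deposited tables. Of the 17, Osm stood at 0.32 at 4 h by DESeq2 and at -0.61 by edgeR. The interleukin 1 genes, which encode secreted pyrogens, lay nearer to 0. Il1b had a value of -0.96 with a combined error of 0.28 and Il1a one of -0.06 with a combined error of 0.36, and in the authors' deposited tables Il1a stood 9.81 over control at 4 h and 9.65 at 24 h. Inhba, a subunit of activin A, was the member above 2-fold on the other side, with a value of 2.14 and a combined error of 1.20. Vegfa, an angiogenic factor, and Tgfb1 had values of 0.98 and 0.27.

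**Figure D3:**
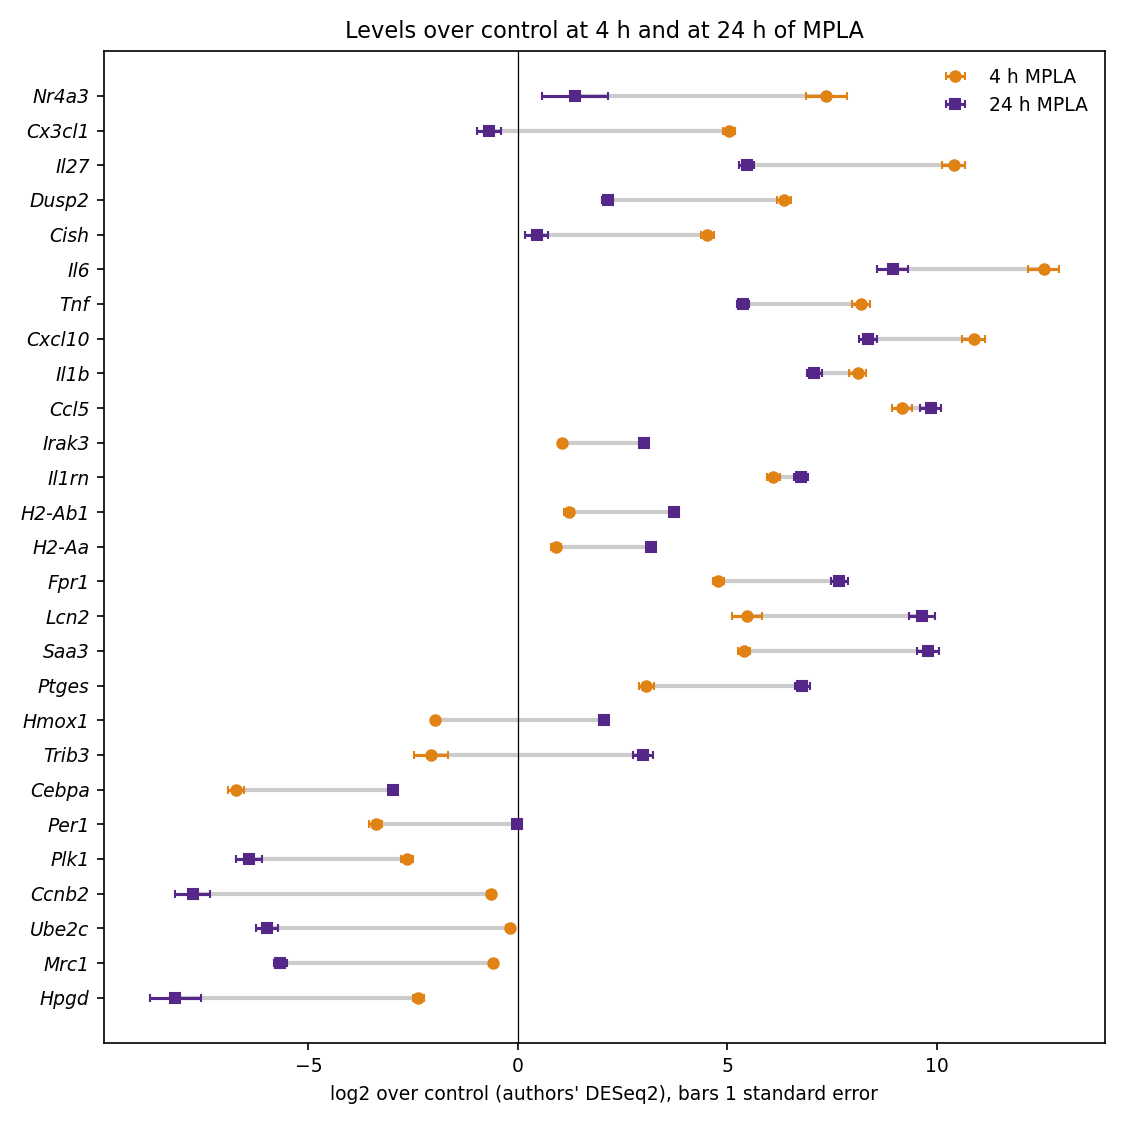
Log2 level over control at 4 h (orange circles) and at 24 h (purple squares) of MPLA for 27 genes described in the text, from the authors' DESeq2 columns, with bars of 1 implied standard error. Il6 moves from 12.55 to 8.95 while Saa3 moves from 5.40 to 9.78, and Hmox1 and Trib3 cross from below to above the control level.

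Chemokines, which attract leukocytes, were also mostly lower. Of 19 members, 13 were at least 2-fold lower at 24 h and none at least 2-fold higher, with a median of -1.82. Cx3cl1, the membrane-bound chemokine fractalkine, was 50.9-fold lower at 24 h, and in the authors' deposited tables went from 5.04 over control to -0.69. The neutrophil chemokines Cxcl1, Cxcl3 and Cxcl2 had values of -3.29, -2.18 and -2.08. The T cell chemokines Cxcl9 and Cxcl10, which are interferon-inducible, had values of -2.89 and -2.46, and Ccl22, Ccl4 and Ccl3 values of -2.52, -2.50 and -2.29. The monocyte chemokines lay nearer to 0, with 0.14 for Ccl2, -0.34 for Ccl7 and -0.56 for Ccl12, against combined errors of 0.29, 0.31 and 0.34. Ccl5, the chemokine RANTES, had a value of 0.74 with a combined error of 0.35 and was 6.91 over control at 3 d in the authors' deposited table. Cxcl11, another interferon-inducible chemokine, had a value of 0.48 with a combined error of 0.75. All 19 rose at 4 h and 17 at 24 h by the DESeq2 calls of the authors' deposited tables. The other 2, Ccl6 and Cx3cl1, fell at 24 h. For Ccl6 the rise at 4 h was 0.15 by DESeq2, whereas edgeR gave -0.78.

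AU-rich elements in the 3′ UTR, the untranslated end of the mRNA, are a feature that the values did not use. The motif TATTTAT was searched on the sense strand of the longest annotated 3′ UTR of each gene, overlapping matches included. It occurred in 29.2% of 12819 coding members, in 39.4% of early-only genes, in 43.4% of early genes still raised, in 30% of late-only genes and in 26 of 124 genes rising further. For recovering and late-falling genes the shares were 27.9% and 26.6%. Lengths differed too, with a median 3′ UTR of 1310 bases over coding members, about 1815 bases in early-only genes and about 756 in genes rising further. Per kb of 3′ UTR the motif occurred 0.26 times over coding members, 0.29 times in early-only genes, 0.45 times in early genes still raised and 0.22 times in genes rising further. In the cytokine list 15 of 20 genes held it, at 2.09 matches per kb. From 5 of these 3′ UTRs the 30 bases with the most motif letters are printed, to show the element in genes at least 2-fold lower at 24 h (Tnf, Il27) and in genes that were not (Il1b, Il1a, Inhba). They are read 5′ to 3′ on the mRNA strand in DNA letters, with the motif in capitals, from GRCm38 transcripts at chr17:35199678-35199707 (minus strand), chr7:126589089-126589118 (minus), chr2:129364807-129364836 (minus), chr2:129300108-129300137 (minus) and chr13:16029034-16029063 (plus).
Tnf: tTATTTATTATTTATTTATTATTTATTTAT
Il27: cagaTATTTATttcttggaTATTTATTTAT
Il1b: aaccacttaccTATTTATTTATgTATTTAT
Il1a: ttttatctatgTATTTATaaataTATTTAT
Inhba: tgattttttcaacttaTATTTATTATTTAT
The whole 3′ UTRs held 8 matches in Tnf, 4 in Il27, 3 in Il1b, 3 in Il1a and 5 in Inhba. Values of -2.76, -4.87, -0.96, -0.06 and 2.14 in that order show the motif in genes at both ends of the list.

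**Figure D4:**
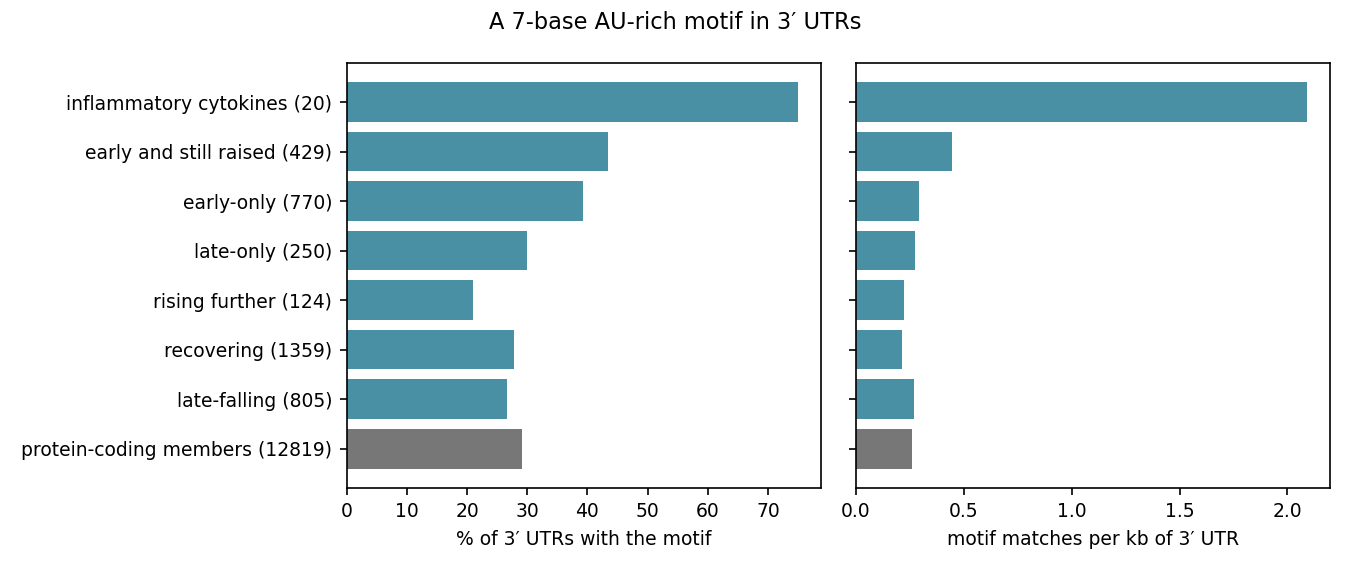
Share of 3′ UTRs with at least 1 TATTTAT (left, in percent) and matches per kb of 3′ UTR (right) for the cytokine list, the 6 classes and all coding members, with the number of 3′ UTRs in brackets. Early genes that were still raised stand at 43.4% and all coding members at 29.2%, with the cytokine list (15 of 20 genes) the tallest bar.

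The NF-kappaB subunits and the feedback inhibitors of the signal formed 1 list. Of 30 NF-kappaB subunits and feedback inhibitors, 16 were at least 2-fold lower at 24 h and 2 at least 2-fold higher, with a median of -1.09. Among the 16 were the subunit genes Rel, Nfkb1, Nfkb2, Rela and Relb. Dusp2, a nuclear phosphatase of MAP kinases, was 17.7-fold lower at 24 h, and Cish, a suppressor of cytokine signalling, had a value of -4.01. Nfkbiz, which encodes I-kappaB-zeta, had a value of -3.44, Rel -3.01, Tnfaip3, the ubiquitin editor A20, -2.51, and Nfkbia, I-kappaB-alpha, -1.59. Most were over control at each time: 29 of the 30 rose at 4 h and 27 at 24 h by the authors' DESeq2 calls. By edgeR, Dusp5, Nfkbid and Sbno2 were below control at 4 h, at -0.23, -0.22 and -0.14, and Rela at 24 h, at -0.20. Irak3, which blocks signalling downstream of MyD88, was 4.05-fold higher at 24 h, with a value of 2.02 and a combined error of 0.10. Irak3 stood at 1.05 over control at 4 h and 3.01 at 24 h in the authors' deposited tables. Dusp4, another MAP kinase phosphatase, had a value of 1.10, and Il1rn, the interleukin 1 receptor antagonist, 0.72.

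The 22 immediate early and AP-1 genes had no common direction, with 6 at least 2-fold higher, 9 at least 2-fold lower and a median of -0.82. Nr4a3, a nuclear receptor induced by many stimuli, was 59.5-fold lower at 24 h, from 7.36 to 1.37 over control in the authors' deposited tables, and at 24 h its DESeq2 adjusted p was 0.12. Fosb, Myc, Klf6 and Maff had values of -1.81, -1.62, -1.51 and -1.29. Of these Fosb had not risen at 4 h, where it was uncalled at -1.41 against control in the authors' deposited table. Egr2 had a value of -3.61 and had not risen at 4 h either: it stood at -0.53 and then -4.12 against control in the authors' deposited tables. Fosl1, an AP-1 subunit, had the highest value of the list, 5.14 with a combined error of 1.35, but a gene on the other strand overlaps 57.2% of it. The other members at least 2-fold higher at 24 h were Egr1 (2.01), Klf2 (1.40), Fosl2 (1.15), Fos (1.12) and Ier3 (1.10). Of these, Klf2, Fosl2 and Fos had fallen at 4 h, Klf2 most, by 1.76 (log2) in the authors' deposited table.

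Interferon response genes stayed far over control, though most were lower at 24 h. Of 43 effector and sensor genes, 23 were at least 2-fold lower at 24 h and 3 at least 2-fold higher, with a median of -1.10, and all 43 rose at both times in the authors' deposited tables. Ifih1, which encodes the RNA sensor MDA5, had a value of -2.69, the guanylate-binding protein gene Gbp5 -2.53, and the immunity-related GTPase genes Ifi47 and Iigp1 -2.16 and -2.00. Antiviral Mx2, Rsad2 and Ifit1 had values of -1.65, -1.47 and -1.36. Isg15, the ubiquitin-like modifier, had a value of -0.14 with a combined error of 0.26, and Irf7, the amplifier of the interferon loop, one of 0.69 with a combined error of 0.23. Bst2, the virion-retaining protein tetherin, Ifi44 and the exonuclease gene Isg20 had values of 1.37, 1.24 and 1.13, so the list held both directions. Without centring, the unscaled median of the list was -0.52. The promoter of Ifit1, 250 bases before to 50 bases after the start (RefSeq, GRCm38.p6, chr19:34640639-34640938, plus strand), is printed to show the element of the family, with matches to GAAA followed after any 2 bases by GAAA, the core of the interferon-stimulated response element, in capitals.
Ifit1: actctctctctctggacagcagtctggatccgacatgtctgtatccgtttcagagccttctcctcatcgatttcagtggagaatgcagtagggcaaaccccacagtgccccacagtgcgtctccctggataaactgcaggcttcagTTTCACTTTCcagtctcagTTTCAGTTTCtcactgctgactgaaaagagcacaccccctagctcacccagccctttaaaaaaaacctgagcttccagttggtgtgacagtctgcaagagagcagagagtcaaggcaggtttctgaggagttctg
Both matches lie on the reverse strand and begin 104 and 85 bases before the start. Of all 27025 promoters of that length in the RefSeq table, from genes of every kind, 3.49% held the motif on either strand, and of 18 promoters of the antigen presentation list described next, 27.8% did. The interferon list as a whole had too few promoters for a share (32 of 42 coding genes).

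Antigen presentation genes, which display peptides to T cells, were nearer 0 as a group. The 20 genes of MHC class I loading and the immunoproteasome had a median of 0.27, with 3 at least 2-fold higher and 2 at least 2-fold lower. Over all members 17.8% were at least 2-fold higher and 19.8% lower. All 20 rose at both times by the authors' DESeq2 calls, but Pdia3 was at -0.43 at 4 h by edgeR. The non-classical class I genes H2-Q6 and H2-Q7 had values of 4.96 and 3.88, and went from 3.79 and 4.31 over control to 8.69 and 8.10 in the authors' deposited tables. In H2-Q6 32.0% and in H2-Q7 26.4% of windows recur in other genes, so both values may draw on the same reads. B2m, the light chain of class I, had a value of 0.38, and Nlrc5, the transactivator of the family, was lower, with -1.88. The peptide transporter gene Tap1 and the immunoproteasome gene Psmb9 had values of -1.13 and -0.62, and H2-Q4 one of 1.40. The list of MHC class II and costimulation held 16 genes, 7 of them at least 2-fold higher and 5 at least 2-fold lower, with a median of 0.29. H2-Ab1, the class II beta chain (chromosome 17, 34257689 to 34269419), was 5.94-fold higher at 24 h, from 1.23 to 3.73 over control in the authors' deposited tables. H2-Aa, H2-Eb1, H2-Oa and Cd74, the invariant chain, had values of 2.33, 2.32, 2.16 and 1.66. The class II transactivator Ciita had a value of -1.95, opposite in sign to these class II genes, and was 4.18 over control at 4 h and 2.16 at 24 h in the authors' deposited tables. Costimulatory Cd40, Icosl and Cd80 and the inhibitory ligand Cd274 had values of -3.08, -1.94, -1.34 and -1.09, while Cd86 had one of -0.13 with a combined error of 0.11. The peptide-exchange gene H2-DMa and the inhibitory ligand gene Pdcd1lg2 both had values of 0.29, so class II and costimulatory members overlapped.

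Acute-phase and antimicrobial genes, which act in host defence, held several large late gains. Of 24 members, 9 were at least 2-fold higher at 24 h and 6 at least 2-fold lower, with a median of 0.49. Saa3, the serum amyloid A made by macrophages (chromosome 7, 46711998 to 46715700), was 21.8-fold higher at 24 h, with a value of 4.45 and a combined error of 0.29. In the authors' deposited tables Saa3 stood 5.40 over control at 4 h, 9.78 at 24 h and 8.22 at 3 d. Lcn2, the siderophore-binding lipocalin 2, was 19.9-fold higher, and stood at 5.48, 9.63 and 7.27 in the authors' deposited tables. Fpr1, a receptor for formylated bacterial peptides, had a value of 2.95, the haptoglobin gene Hp 2.23, the scavenger receptor gene Marco 2.07 and the phagosomal metal transporter gene Slc11a1 1.91. Cfb, complement factor B, had a value of 3.44, but 73.0% of its windows occur in other transcripts. C3, the central complement component, had a value of 0.39 with a combined error of 0.21. Lower at 24 h were the complement inhibitor gene Serping1 (-1.64, with a combined error of 1.41), Nos2 (-1.62), described with the nitric oxide enzymes, the lysozyme genes Lyz2 and Lyz1 (-1.47 and -1.21) and the C-type lectin genes Clec4n and Clec4d (-1.18 and -1.17).

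The promoters of Cxcl1, with a value of -3.29, and of Lcn2, with one of 4.31, are printed side by side because both are textbook NF-kappaB targets with opposite values here. They are RefSeq sequences of GRCm38.p6 with matches to GGG followed after any 5 bases by CC, a loose form of the NF-kappaB site, on either strand in capitals, from chr5:90890995-90891294 (plus strand) and chr2:32387690-32387989 (minus strand).
Cxcl1: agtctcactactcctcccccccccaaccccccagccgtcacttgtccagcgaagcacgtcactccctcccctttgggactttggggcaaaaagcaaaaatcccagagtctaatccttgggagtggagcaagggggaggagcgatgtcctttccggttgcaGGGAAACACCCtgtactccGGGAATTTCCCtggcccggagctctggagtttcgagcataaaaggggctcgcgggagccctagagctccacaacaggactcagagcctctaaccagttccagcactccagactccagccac
Lcn2: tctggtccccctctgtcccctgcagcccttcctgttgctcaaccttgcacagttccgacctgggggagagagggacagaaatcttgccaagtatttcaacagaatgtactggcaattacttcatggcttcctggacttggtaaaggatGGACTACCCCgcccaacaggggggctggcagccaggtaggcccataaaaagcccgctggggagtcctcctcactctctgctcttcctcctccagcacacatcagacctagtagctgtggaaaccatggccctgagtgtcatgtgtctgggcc
In Cxcl1 each of the 2 stretches in capitals matches on both strands, at 90 and 71 bases before the start on the forward strand. In Lcn2 the match is on the reverse strand, 102 bases before the start. The motif is common: 50.4% of the 27025 promoters held it, as did 84.6% of 26 promoters of the NF-kappaB subunit and feedback list. Over coding members the share was 67.1% of 10302 promoters, which is void as a check because 79.1% of coding members had a promoter, but it was higher than over the whole table.

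Enzymes that make lipid and small-molecule mediators had values of both signs. Of 17 enzymes of itaconate, nitric oxide, prostaglandin and polyamine metabolism, 4 were at least 2-fold higher and 8 at least 2-fold lower at 24 h, with a median of -0.88. Within the prostaglandin pathway, the inducible cyclooxygenase gene Ptgs2 had a value of -2.59 and the constitutive Ptgs1 one of -3.38. Ptges, the prostaglandin E synthase that acts after cyclooxygenase, was 13.7-fold higher at 24 h and went from 3.07 to 6.79 over control in the authors' deposited tables. Hpgd, which degrades the product, went from -2.37 to -8.17 and was still at -6.22 at 3 d in the authors' deposited tables. Nos2, the inducible nitric oxide synthase, had a value of -1.62 with a combined error of 0.46. Irg1, which makes itaconate, had one of -0.64 with a combined error of 0.36, and stayed 9.39 over control at 24 h in the authors' deposited table. Arg1, the arginase that competes for the same substrate as Nos2, had a value of 2.35 with a combined error of 1.47. Ass1, which regenerates arginine, had a value of 1.27, and the leukotriene enzyme gene Alox5 one of -2.67.

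Mitosis and DNA replication genes had different medians. None of 25 mitosis genes was at least 2-fold higher at 24 h and 18 were at least 2-fold lower, with a median of -2.13. Against control, 23 of the 25 fell at 4 h and 24 at 24 h by the authors' deposited calls, and the median level went from -1.95 to -4.14 against control. Ccnb2 (chromosome 9, 70407692 to 70421547) was at -0.65 at 4 h and at -7.76 at 24 h in the authors' DESeq2 columns. By edgeR it was at -1.58 and -8.38. Ube2c, which encodes the ubiquitin-conjugating enzyme of the anaphase-promoting complex, had a value of -5.79, and the mitotic kinase gene Plk1 one of -3.81. Aurka, Ndc80 and Bub1b, of the spindle and its checkpoint, had values of -0.24, -0.19 and -0.03, and were already called lower at 4 h, at -2.51, -2.95 and -3.72 in the authors' deposited table. Tpx2, a spindle assembly factor, was the member that rose at both times, by 0.74 and 0.68 in the authors' DESeq2 columns. By edgeR it was at -0.19 at 4 h and 0.26 at 24 h.

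Of 31 DNA replication genes, 8 were at least 2-fold higher and 5 at least 2-fold lower at 24 h, with a median of 0.25. The shares over all members were 17.8% and 19.8%. Cdc6, which loads the replicative helicase, had a value of 2.96 with a combined error of 0.41, and went from -3.49 to -0.63 against control in the authors' deposited tables. The helicase subunit gene Mcm2 had a value of 2.15, and E2f1, the transcription factor of S phase entry, and Uhrf1, a maintenance methylation factor, 2.09 each. Lower at 24 h were Mcm10 (-2.48), Rfc3 (-1.75), Tyms (-1.51), Pcna (-1.32) and Tk1 (-1.12), of which the first 4 had risen at 4 h. For Tyms the sign at 4 h depended on the tool, with 0.48 by DESeq2 and -0.45 by edgeR. Against control 20 of the 31 fell at 4 h and 22 at 24 h by the authors' deposited calls, and 7 and 6 rose. At 3 d, in the authors' deposited table, 14 of the 31 were called higher and 3 lower, with a median of 0.16, and all 25 mitosis genes were called lower, with a median of -0.86.

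The promoters of 3 mitosis genes are printed because CCAAT, bound by NF-Y, and TTTGAA, the cell cycle homology region bound by the DREAM and MuvB complexes, were frequent in that list. The sequences are RefSeq promoters of GRCm38.p6 from chr9:70421505-70421804 (minus strand), chr2:164769679-164769978 (plus) and chr7:122159185-122159484 (plus), with matches on either strand in capitals.
Ccnb2: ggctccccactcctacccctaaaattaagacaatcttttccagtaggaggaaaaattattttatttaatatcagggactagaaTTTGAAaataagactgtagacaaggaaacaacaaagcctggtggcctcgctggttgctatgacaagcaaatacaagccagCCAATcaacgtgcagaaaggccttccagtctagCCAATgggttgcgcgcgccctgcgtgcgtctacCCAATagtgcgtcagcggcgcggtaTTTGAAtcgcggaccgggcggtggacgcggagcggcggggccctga
Ube2c: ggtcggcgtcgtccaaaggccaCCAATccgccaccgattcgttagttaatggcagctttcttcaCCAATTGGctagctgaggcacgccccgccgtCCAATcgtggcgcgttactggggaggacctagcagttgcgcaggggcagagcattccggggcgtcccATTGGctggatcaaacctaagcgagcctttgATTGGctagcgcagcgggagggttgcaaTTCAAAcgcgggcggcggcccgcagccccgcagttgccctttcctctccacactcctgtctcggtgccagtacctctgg
Plk1: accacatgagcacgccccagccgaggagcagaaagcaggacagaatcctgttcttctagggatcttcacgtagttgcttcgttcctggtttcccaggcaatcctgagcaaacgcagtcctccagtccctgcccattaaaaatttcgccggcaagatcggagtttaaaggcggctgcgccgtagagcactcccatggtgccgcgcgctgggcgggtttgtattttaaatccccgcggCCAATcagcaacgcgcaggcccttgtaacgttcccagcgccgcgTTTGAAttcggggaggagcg
In Ccnb2 CCAAT begins 87, 54 and 21 bases before the start, with TTTGAA 167 bases before and 5 bases after it. In Plk1 CCAAT begins 14 bases before the start and TTTGAA 31 bases after it. Of 21 mitosis promoters with a sequence, 81.0% held CCAAT and 76.2% TTTGAA, against 37.9% and 18.1% of all 27025 promoters. Of 25 DNA replication promoters, 64% held CCAAT and 12% TTTGAA. Over coding members the shares were 39.0% and 12.0% of 10302 promoters, again void as a check. In Ube2c CCAAT matches 6 times, with an overlapping pair that reads CCAATTGG.

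Genes of the translation machinery lay in a narrow band. Of 49 cytosolic ribosomal protein genes, 4 were at least 2-fold lower and none at least 2-fold higher, with Rpsa (-1.12), Rps15 and Rps16 (-1.06 each) lowest, a median of -0.71 and 48 below 0. Against control 37 rose at 4 h and 46 fell at 24 h by the authors' DESeq2 calls. Their edgeR fold changes at 4 h were below 0 for all of the list except Rpl24 (0.27). Rps18, Rpl7 and Rps23 stood at 0.15, 0.34 and 0.39 by DESeq2 and at -0.78, -0.60 and -0.55 by edgeR. The direction at 4 h thus depended on the tool. The unscaled median of the 24 h over 4 h ratio without centring was -0.12. Many ribosomal protein genes share sequence with pseudogenes, so their reads may be split. The 26 ribosome biogenesis genes had a median of 0.33, with 18 above 0 and 8 below, 3 at least 2-fold higher and 2 at least 2-fold lower. Polr1b and Polr1a, subunits of RNA polymerase I, had values of 1.52 and 1.21, and Wdr12 one of 1.64. The lowest were Wdr43 (-1.27), Rrs1 (-1.14) and Npm1 (-0.61), which encode nucleolar proteins.

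In central metabolism, the 20 genes of glycolysis and lactate export had a median of 0.60, with 2 at least 2-fold higher and 3 at least 2-fold lower. The enzymes from aldolase to lactate dehydrogenase all had values above 0, with Pkm at 0.94, Aldoa at 0.91, Ldha at 0.85, Eno1 at 0.83, Tpi1 at 0.79, Pgam1 at 0.75, Gapdh at 0.50 and Pgk1 at 0.27. The highest members were Pfkfb4 (1.53), a regulator of glycolytic flux, and Pfkm (1.09), a phosphofructokinase. Early in the pathway both signs occurred, with Pfkp, Hk2 and Hk1 at -2.47, -1.07 and -0.30 and Pfkl, Gpi1 and Hk3 at 0.69, 0.48 and 0.26. The lactate and pyruvate transporter gene Slc16a1 had a value of -2.67, and the related Slc16a3 one of 0.75. Oxidative phosphorylation (42 nuclear genes, none past 2-fold) and the TCA cycle (26 genes, 2 higher and 1 lower) had medians of -0.12 and -0.05. Both medians turned positive without centring, at 0.47 and 0.53 from the unscaled ratio and 0.35 and 0.41 from the edgeR columns, so no direction is given for them. Mpc1, a subunit of the mitochondrial pyruvate carrier, had a value of -1.31, and Pcx, the pyruvate carboxylase gene, one of 1.20. Idh2 (-0.999), Suclg2 (-0.87), Sdhb (0.92) and Pdk2 (1.12) were also near the ends of the TCA list. In oxidative phosphorylation, values ran from Ndufa4 (-0.88), Uqcrfs1 (-0.83) and Cox4i1 (-0.69) to Cox5a (0.28), Ndufs7 (0.58) and Sdhb.

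Several cholesterol synthesis genes had risen at 4 h. Of 22 genes of synthesis and uptake, 8 were at least 2-fold lower and 2 at least 2-fold higher at 24 h, with a median of -0.41 that became 0.18 in the unscaled ratio and 0.06 in the edgeR columns without centring. Idi1 and Hmgcs1, enzymes of the mevalonate part of the pathway, had values of -2.15 and -1.95. In the authors' deposited tables Idi1 stood 2.17 over control at 4 h and -0.04 at 24 h. Among the higher members, Lss, the lanosterol synthase gene, and Mvd had values of 1.20 and 0.96, and the last enzyme of the pathway, Dhcr7, had a value of 1.64 and had fallen to -2.42 at 4 h in the authors' deposited table. The 12 genes of cholesterol efflux and liver X receptor (LXR) targets had no common direction, with 3 at least 2-fold higher, 3 at least 2-fold lower and a median of 0.36. Scd2, a stearoyl-CoA desaturase, was 17.6-fold higher at 24 h, from -2.93 to 1.12 against control in the authors' deposited tables. Abca1, the cholesterol exporter, had a value of 1.75 and Nr1h3, which encodes LXR alpha, one of 1.17. Apoe, Pltp and Apoc2, of lipoprotein metabolism, had values of -1.90, -1.86 and -1.77.

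Genes that mark the macrophage lineage were more often lower than higher at 24 h. Of 29 lineage and identity genes, 11 were at least 2-fold lower at 24 h and 3 at least 2-fold higher, with a median of -0.76, and 18 were called lower than control in the authors' deposited 24 h table. Mrc1, the mannose receptor CD206 (chromosome 2, 14229392 to 14332057), was 32.3-fold lower at 24 h, and in the authors' deposited tables went from -0.60 against control at 4 h to -5.67 at 24 h. Irf8, a lineage transcription factor, had a value of -3.58 with a combined error of 0.08 and crossed from 2.72 to -0.91 in the authors' deposited tables. Gpr34, Gas6, its receptor Mertk and the lipid sensor Trem2 had values of -3.09, -2.91, -2.43 and -2.27. The C/EBP genes went separate ways: Cebpd had a value of -2.98, Cebpb one of 0.99 and Cebpa one of 3.83. Cebpa, the myeloid differentiation factor, went from -6.73 to -2.98 against control in the authors' deposited tables, so it was still under control at 24 h. Adgre1, which encodes F4/80, and Aif1 had values of 0.99 and 1.37.

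Of 19 pro-resolving and repair genes, Mrc1 among them, 7 were at least 2-fold lower and 3 at least 2-fold higher, with a median of -0.58 that was 0 before centring. Thbs1, the matrix protein thrombospondin 1, was 24.6-fold higher at 24 h, from -1.73 to 2.83 against control in the authors' deposited tables. The fibronectin gene Fn1 and the growth factor gene Igf1 had values of -3.17 and -2.33, and Tgfb2 one of 1.00 with a combined error of 2.01. The 31 lysosome genes had a median of -0.33, which became 0.26 in the unscaled ratio and 0.14 in the edgeR columns without centring, with 2 at least 2-fold higher and 3 at least 2-fold lower. Tfeb, the regulator of lysosome biogenesis, had a value of 2.21, and the proton pump subunit gene Atp6v0d2 one of -3.13. The hydrolase genes Neu1 and Ctsz had values of 1.67 and 0.86, and Hexa and Ctsl values of -1.29 and -1.11.

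Antioxidant and iron genes, which act against oxidative stress, were mostly higher at 24 h. Of 16 NRF2 targets and iron handling genes, 6 were at least 2-fold higher at 24 h and none at least 2-fold lower, with a median of 0.68. Hmox1, heme oxygenase 1 (chromosome 8, 75093621 to 75100589), was 16.9-fold higher at 24 h, with a value of 4.08 and a combined error of 0.07. It fell to -1.97 at 4 h and rose to 2.05 at 24 h in the authors' deposited tables. Fth1, the ferritin heavy chain gene, had a value of 1.94, the glutathione synthesis genes Gclc and Gclm 1.59 and 1.18, and the iron exporter gene Slc40a1 1.53. Slc40a1 was nevertheless at -5.96 and -4.49 against control in the authors' deposited tables, and so among the recovering genes. The lowest members were Slc11a2 (-0.86), Tfrc (-0.25) and Txnrd1 (-0.17).

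Of 20 mTOR inhibitor, FOXO and starvation genes, 7 were at least 2-fold higher at 24 h and 4 at least 2-fold lower, with a median of 0.57. The shares over all members were 17.8% and 19.8%, so the lower count was near that share. Against control 16 of the 20 genes fell at each time in the authors' deposited tables. Foxo3, a transcription factor of stress and quiescence, had a value of 2.84, the pro-apoptotic gene Bmf 3.21, the glucocorticoid-induced leucine zipper gene Tsc22d3 2.48 and the mTOR inhibitor gene Ddit4 2.46. Per1, a component of the circadian clock, had a value of 3.44 and went from -3.40 to -0.03 in the authors' deposited tables. Trib3, a pseudokinase of the stress response, passed above control, with a value of 5.19 and levels of -2.07 and 2.99 in the authors' deposited tables. Lower at 24 h were Cited2 (-3.96), Ccng2 (-2.93), Pik3ip1 (-2.69) and Deptor (-1.51).

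**Figure D5:**
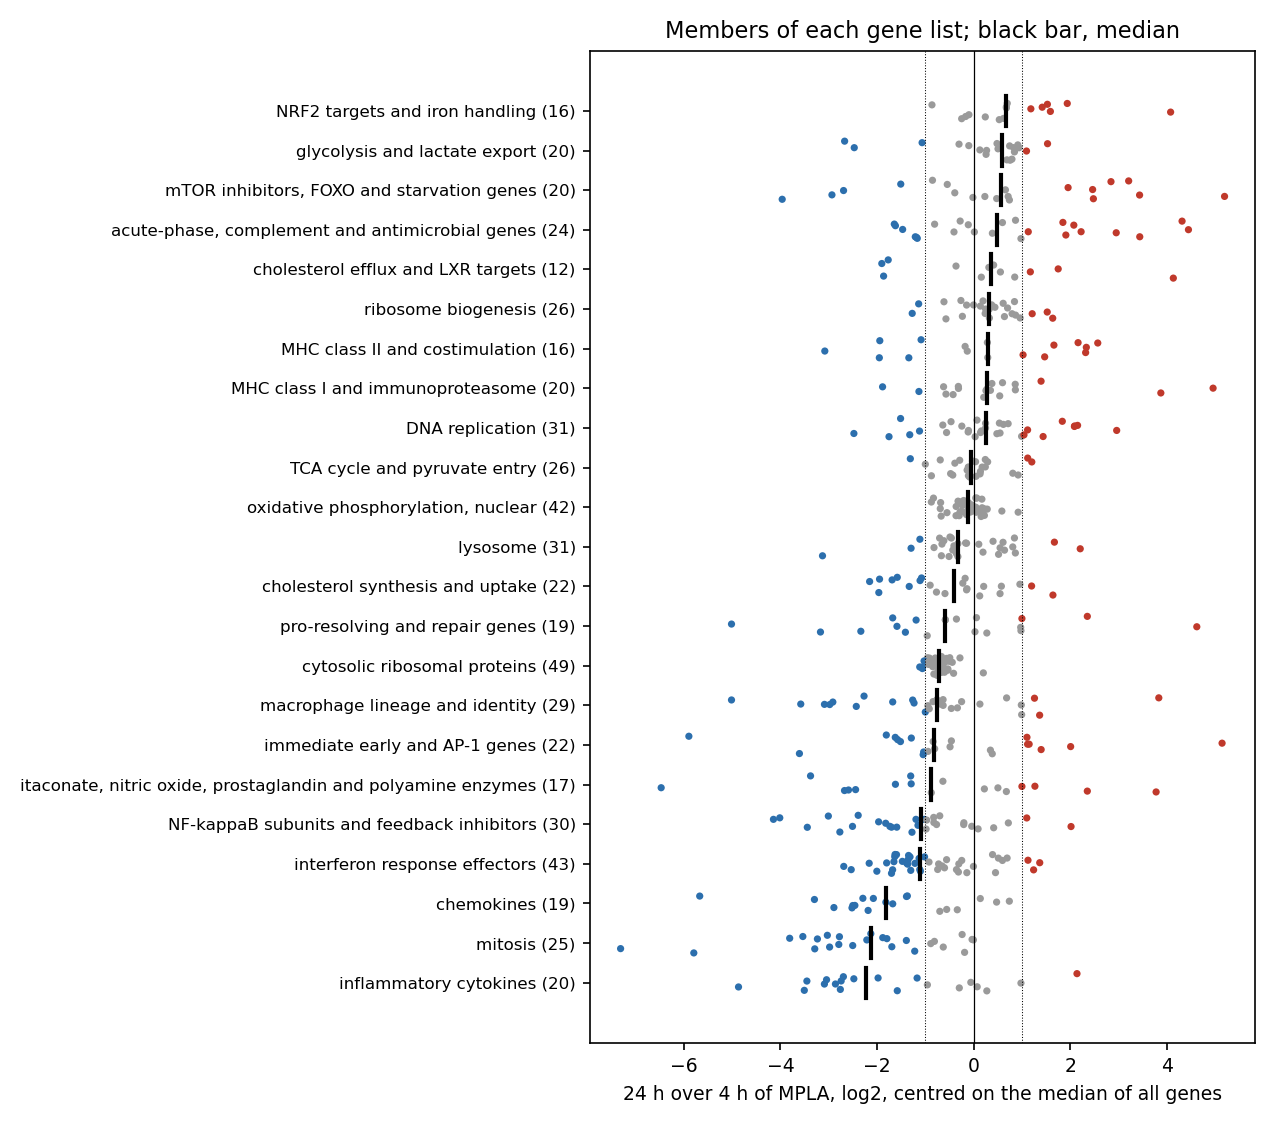
The 24 h over 4 h value (log2, centred) of every member of the 23 function lists, 1 point per gene, with black bars for list medians, dotted lines at 2-fold and the number of members in brackets. Medians run from -2.23 for inflammatory cytokines to 0.68 for NRF2 targets and iron handling.

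Markers of other cells the cultures might have held were mostly outside the comparison. All 10 macrophage markers were members, with values from -2.43 (Mertk) to 1.37 (Aif1), whereas 0 of 5 NK cell, 2 of 7 T cell, 4 of 7 B cell, 2 of 9 neutrophil, 1 of 5 mast cell and basophil, 3 of 6 dendritic cell, 3 of 6 fibroblast, 2 of 7 erythroid and 4 of 5 endothelial markers were. Cd3e, Cd3g, Cd8a, Trac, Igkc, Ly6g and the globin genes stood in neither table. Lck, a kinase of T cell receptor signalling, had a value of -5.74 and rose by 7.19 at 4 h in the authors' deposited table. No CD3 gene was in the comparison, and Cd3d stood in the 24 h table alone, without an adjusted p. Ighm was the only B cell marker past 2-fold. The dendritic cell markers Zbtb46, Itgax and Xcr1 had values of -2.77, -1.25 and -0.76, and the fibroblast collagen genes Col3a1, Col1a1 and Col1a2 values of -2.91, -2.58 and -0.17 with combined errors of 1.73, 1.60 and 1.37. The neutrophil markers Camp and S100a8 had values of 1.85 and -0.75 with combined errors of 1.56 and 0.63, and the mast cell and erythroid members Gata2, Alas2 and Klf1 values of 0.42, 0.00 and 1.00 with combined errors of 1.23, 1.94 and 1.85. The fibroblast markers Dcn and Lum, listed at 0 in the controls, rose at both times in the authors' deposited tables, and Pdgfra rose at 4 h. The endothelial markers Vwf, Cdh5, Kdr and Pecam1 had values of -1.29, -0.86, -0.58 and 0.97, and Cdh5, Kdr and Pecam1 rose at both times in the authors' deposited tables. The part of other cells in the values was not tested.

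Genes with no reads in a group have no finite ratio and no value. Of 4591 genes in both tables without a finite ratio, 1780 were listed at 0 in both MPLA groups, 1297 at 4 h alone, 951 at 24 h alone and 563 in the controls, and 851 and 881 genes stood only in the 4 h or the 24 h table. Of those listed at 0 in the controls, 167 rose at 4 h and 122 at 24 h in the authors' deposited tables, 84 of them at 4 h without a call at 24 h and 39 at 24 h without a call at 4 h. Among them were the cytokine genes Il12a, Csf2 and Csf3, which rose at both times in the authors' deposited tables, and Lif, which rose at 4 h and had no adjusted p at 24 h. No fold is given for genes listed at 0.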

How the data were processed

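The tools listed in the submitters' processing notes are TopHat2, HTSeq, bcl2fastq, DESeq, DESeq2 and edgeR, with no version, role or order, and mm10 is the genome build named there. The annotation, the counting settings and the use of strand are not given in the sources used here. Libraries were made with a stranded polyA kit, per the labels' protocols. Each of the 3 comparison tables sets 1 MPLA group against the same 3 controls. Per the file headers, the authors deposited log2 fold changes with p-values and adjusted p-values from DESeq2 and edgeR, an unscaled log2 ratio, and likelihoods and other ranking columns. The deposited likelihoods and ranks were not used. Each table was normalized on its own and holds no values per library, so depth is unknown and the planned test on counts could not be run.

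The deposited ratios are control over MPLA. Their sign was turned here, since cytokine genes known to be induced were strongly negative. The unscaled log2 ratios of the 4 h and 24 h tables were subtracted and centred on the median. Standard errors were taken as the absolute value of the authors' DESeq2 log2 fold change over the normal quantile of its p-value, and where a p-value was stored as 0 the error is an upper bound. The calculation was tested on simulated data. Calls against control used the authors' DESeq2 adjusted p under 0.05. Named were the 12 largest values each way, the 6 largest of each class (both with an adjusted p in both tables and under 0.05 in at least 1, without predicted genes) and, from each function list, the 3 highest and 3 lowest members and members of textbook interest, of which not all are printed. The 23 function lists, the 10 marker lists and the members were chosen with earlier results of these data known. Gene positions, 3′ UTRs and shared 50-base windows came from GENCODE M21 (GRCm38), promoters from RefSeq (GRCm38.p6). Shares of promoters are given where at least 80% of coding genes had one, and are otherwise named as void. Python 3.11.15, pandas 2.3.3, numpy 2.4.6 and scipy 1.17.1 were used. Alternatives were the authors' DESeq2 and edgeR columns in place of the unscaled ratio, no centring, only genes with an adjusted p in both tables, a 4-fold limit and edgeR calls. Some items are not reported here.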

Additional observations from a re-analysis of the deposited data

How the results depend on the processing

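With the authors' DESeq2 or edgeR columns centred, every count of genes was within 1.5 times its reported value. The same held with only genes that had an adjusted p in both tables. It also held for the 2-fold counts over coding genes alone (added after seeing the data). The class counts with the authors' edgeR calls stayed within that limit too, but classes called higher than control shrank and classes called lower grew. They were 625 early-only, 414 early and still raised, 253 late-only, 107 rising further, 2274 recovering and 1278 late-falling. The unscaled ratio without centring gave 5655 genes at least 2-fold higher and 2020 lower, 575 early-only, 310 early and still raised and 304 rising further. The authors' DESeq2 columns without centring gave 2418 higher and 3147 lower. A 4-fold limit left 945 higher and 1259 lower, and 415 early-only, 102 early and still raised, 114 late-only, 43 rising further, 488 recovering and 389 late-falling. Requiring 2 combined errors (also added afterwards) left 2137 lower. Of 620 named genes, 4 moved by more than their error with the DESeq2 columns centred and none with edgeR centred. Without centring, 86 moved with the DESeq2 columns and 556 with the unscaled ratio, which shifts every value by the same 0.58. Leaving out libraries was not run. No paired analysis was possible because the tables hold no values per library. Depth per gene is unknown, so the implied errors alone mark weakly expressed genes.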
